A study of Arabidopsis thaliana with 4 samples.

Results

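The genes described here encode the R3 MYB repressors of trichome initiation in *Arabidopsis thaliana*: *TRY*, *CPC*, *ETC1*, *ETC2*, *ETC3* and *TCL1*. They were taken by locus identifier and make up 6 of the 33544 genes listed in the deposited tables. All 6 passed the filter on low values, which asked for 2 libraries at 1 FPKM or above, as did 19308 genes in all. Polyadenylated RNA was sequenced from whole seedlings aged 14 days. The wild type was Col-0, and the mutant, *ect2*, carried a T-DNA insertion in *ECT2* in the Col-0 background. Each genotype had 2 libraries, numbered 1 and 2. The labels name neither the insertion allele nor whether a library pooled plants, and they put growth on medium or on soil under long days without saying which applied to these seedlings. FPKM counts fragments relative to transcript length and to all mapped fragments of the library, so levels of different genes are set side by side per length.

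Trichomes are the single-celled hairs of the leaf and stem surface. A complex of an R2R3 MYB protein (GL1 or MYB23), a bHLH protein (GL3 or EGL3) and the WD40 protein TTG1 turns on the homeodomain gene *GL2* and commits an epidermal cell to a trichome. R3 MYB proteins have a single MYB repeat and no activation domain. They take the place of the R2R3 MYB protein on the bHLH protein, move into neighbouring cells and keep those from becoming trichomes. In the root epidermis the same proteins promote root hairs, since the related complex with WER specifies hairless cells. *ECT2* encodes a reader of N6-methyladenosine in RNA and is known from trichome branching, and the comparison asks whether levels of the repressor transcripts differ when it is disrupted.

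The second coding exon of these genes is shown because it carries most of the bHLH-interaction signature, the feature by which the proteins act, and because likeness between the copies bears on how reads can be told apart. The capitals mark the 4 codons of the signature's fixed residues that lie in this exon: an acidic residue, a leucine, a basic residue and a further leucine. The exon had 88 bases in the chosen RefSeq transcript of each gene (TAIR10.1), and the lines run 5′ to 3′ on the coding strand. *TCL2* (AT2G30424), the remaining gene of the family, is shown for comparison.
TRY, chr5:21583270-21583357, plus strand: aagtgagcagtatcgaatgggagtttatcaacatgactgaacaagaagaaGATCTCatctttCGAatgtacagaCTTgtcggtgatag
ETC2, chr2:12961640-12961727, minus strand: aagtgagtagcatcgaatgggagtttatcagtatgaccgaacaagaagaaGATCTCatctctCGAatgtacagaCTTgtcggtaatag
TCL1, chr2:12969766-12969853, minus strand: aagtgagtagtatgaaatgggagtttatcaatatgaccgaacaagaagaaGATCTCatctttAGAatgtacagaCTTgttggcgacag
TCL2, chr2:12965198-12965285, minus strand: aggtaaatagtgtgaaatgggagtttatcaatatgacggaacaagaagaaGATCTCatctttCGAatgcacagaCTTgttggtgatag
CPC, chr2:19049946-19050033, minus strand: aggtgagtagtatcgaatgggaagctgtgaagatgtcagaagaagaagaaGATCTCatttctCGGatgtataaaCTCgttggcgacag
ETC3, chr4:460702-460789, plus strand: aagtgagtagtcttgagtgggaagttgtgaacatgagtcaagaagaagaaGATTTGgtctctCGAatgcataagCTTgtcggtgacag
ETC1, chr1:147452-147539, plus strand: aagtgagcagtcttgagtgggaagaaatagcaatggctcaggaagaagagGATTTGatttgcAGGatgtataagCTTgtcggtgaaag

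*TRY*, *ETC2*, *TCL1* and *TCL2* formed the closest group in this exon. *TRY* and *ETC2* were identical at 81 of 88 bases (92.0%), and *TCL1* and *TCL2* at 79 (89.8%). *CPC* shared 61 to 69 bases with the other genes, and *ETC1* was farthest from *TCL2*, with 53 identical bases (60.2%). Over whole transcripts the longest exact match was 30 bases between *TRY* and *TCL2*, and that between *ETC2* and *TCL1* was 29 bases. For the length of the sequenced reads and the handling of reads that match several copies, nothing is given in the sources used here.

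*ETC2*, *TCL2* and *TCL1* lie in a row on the minus strand of chromosome 2, with AT2G30430, listed at 0 in all 4 libraries, between *TCL2* and *TCL1* on the plus strand. *ETC2* spans 12960847 to 12962162, *TCL2* 12962984 to 12965723 and *TCL1* 12968565 to 12970240. The gap between *ETC2* and *TCL2* is 821 bases, and the gene *KIS*, which encodes a tubulin folding cofactor, ends 78 bases from *ETC2* on the opposite strand. *CPC* is on the same chromosome at 19049021 to 19050369, minus strand. *TRY* is on chromosome 5 at 21582614 to 21584243, *ETC1* on chromosome 1 at 147043 to 148014 and *ETC3* on chromosome 4 at 460395 to 461246, all on the plus strand. Each chosen transcript has 3 exons, with 633 bases in *TCL1* and 903 in *TRY* as the extremes of the 6.

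The *ECT2* transcript (AT3G13460) had 137 and 76.7 FPKM in the wild-type libraries, against 9.07 and 8.58 FPKM in the mutant ones. Both mutant libraries thus carried less of it, and their labels give the insertion, not a transcript level. Even this difference did not pass over all genes (limma, adjusted p = 0.153). The number of genes at 1 FPKM or more was 18908 to 19114 per library. Read totals are not given, so the absolute depth behind each value is unknown. Leaf genes were high in each library (*CAB1*, which encodes a chlorophyll-binding protein, at 30143 FPKM or more) and the root endodermis gene *CASP1* was listed at 65.6 to 104 FPKM. Col-0 replicate 1 stood apart. Its 8 seed storage and oil body genes summed to 279 FPKM, against 6.87, 10.7 and 9.52 FPKM in Col-0 replicate 2 and *ect2* replicates 1 and 2, and the trichome regulator gene *GIS* had 6.05 FPKM in this library, against 0.148 to 0.509 FPKM elsewhere. Genes outside these lists set it apart too, and how many was not counted. AT1G02660, named after its values were seen, had 2.36 FPKM in Col-0 replicate 1. It had 40.9 FPKM in Col-0 replicate 2 and 40.6 and 42.5 FPKM in the *ect2* libraries. Whether replicates came from separately grown plants is not stated, so the p-values cover no more than the spread of the 4 libraries, which may be technical.

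*ETC2* had the largest difference between the genotypes among the 6 repressor genes, and *ETC1* the next. Both were lower in both *ect2* libraries than in both Col-0 libraries, and the other 4 had overlapping groups. None of the 6 passed the test over all genes. Of all tested genes, 0.0259% passed that test (5 of 19308), and 20.2% had both mutant libraries below both wild-type libraries, so 2 of 6 members rest on too few genes to be set apart from that background. Before adjustment 4.86% of tested genes had a p below 0.05, and among the members *ETC2* did.

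*ETC2* (AT2G30420) represses trichomes on leaves, and natural variants at this gene are known to alter trichome number. Its level was 5.07 and 6.97 FPKM in wild-type replicates 1 and 2, against 2.06 and 3.08 FPKM in mutant replicates 1 and 2. Replicate 2 was the higher library in both genotypes, and the groups did not overlap. The wild-type mean was 6.02 ± 1.34 FPKM and the mutant mean 2.57 ± 0.724 FPKM (SD, n = 2 each), so the wild-type level was 2.34 times the mutant level. On the log2(FPKM + 1) scale, which understates changes of low values, the difference was -0.98 ± 0.28 (SE), with a 95% interval of -1.67 to -0.28. The interval covers this gene alone. Adjusted over all genes the difference did not pass (limma, adjusted p = 0.842). Without each library in turn it lay between -1.18 and -0.77. Its sign could not turn there, because the groups did not overlap.

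*ETC1* (AT1G01380) acts redundantly with *TRY* and *CPC* in trichome spacing and root hair formation. It measured 6.37 and 6.89 FPKM in wild-type libraries and 4.77 and 3.87 FPKM in mutant libraries. The Col-0 libraries lay close together and above both mutant libraries. The means were 6.63 ± 0.367 and 4.32 ± 0.635 FPKM (SD, n = 2 each). The log2 difference was -0.53 ± 0.23 (SE), with an interval of -1.09 to 0.04 and an adjusted p of 0.842 (limma). Without each library in turn it lay between -0.65 and -0.40, where the lack of overlap again fixed the sign. The annotated ends of *ETC1* and AT1G01390 overlap, and AT1G01390 had 2.65 FPKM in the first wild-type library, against 0.408 to 0.646 FPKM elsewhere.

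*TRY* (AT5G53200), whose loss gives clustered trichomes, was the lowest member on average in both genotypes. It had 3.42 and 1.51 FPKM in the wild type, against 1.51 and 2.12 FPKM in the mutant. Only Col-0 replicate 1 stood clear of the others, the library that also carried the seed transcripts, whose part in the *TRY* value was not tested. The log2 difference was -0.25 ± 0.35 (limma, adjusted p = 0.894), turning to 0.16 once Col-0 replicate 1 was left out.

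*CPC* (AT2G46410), which promotes root hairs and moves between root epidermal cells, measured 5.85 and 9.81 FPKM in wild-type libraries and 6.05 and 5.76 FPKM in mutant libraries. Here Col-0 replicate 2 was the high library, and the other 3 lay between 5.76 and 6.05 FPKM. The log2 difference was -0.32 ± 0.29 (limma, adjusted p = 0.853). Without Col-0 replicate 2 it was 0.011, and without Col-0 replicate 1 it was -0.65.

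*ETC3* (AT4G01060), also called *CPL3*, acts in trichome and root hair patterning. It had 13.1 and 11.2 FPKM in the wild type, against 9.11 and 17.5 FPKM in the mutant. The mutant libraries held both the lowest and the highest value of the 4. The log2 difference was 0.06 ± 0.34, with an interval of -0.79 to 0.91 (limma, adjusted p = 0.977). It was -0.38 without *ect2* replicate 2, 0.50 without *ect2* replicate 1 and -0.039 without Col-0 replicate 2.

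*TCL1* (AT2G30432), which represses *GL1* and keeps trichomes off the inflorescence stem, measured 3.30 and 3.96 FPKM in wild-type libraries and 3.62 and 4.91 FPKM in mutant libraries. It varied least of the 6, by a factor of 1.49 between the highest and the lowest library. The log2 difference was 0.18 ± 0.25, with an interval of -0.45 to 0.80 (limma, adjusted p = 0.898). Without *ect2* replicate 2 it was -0.00079.

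**Figure D1:**
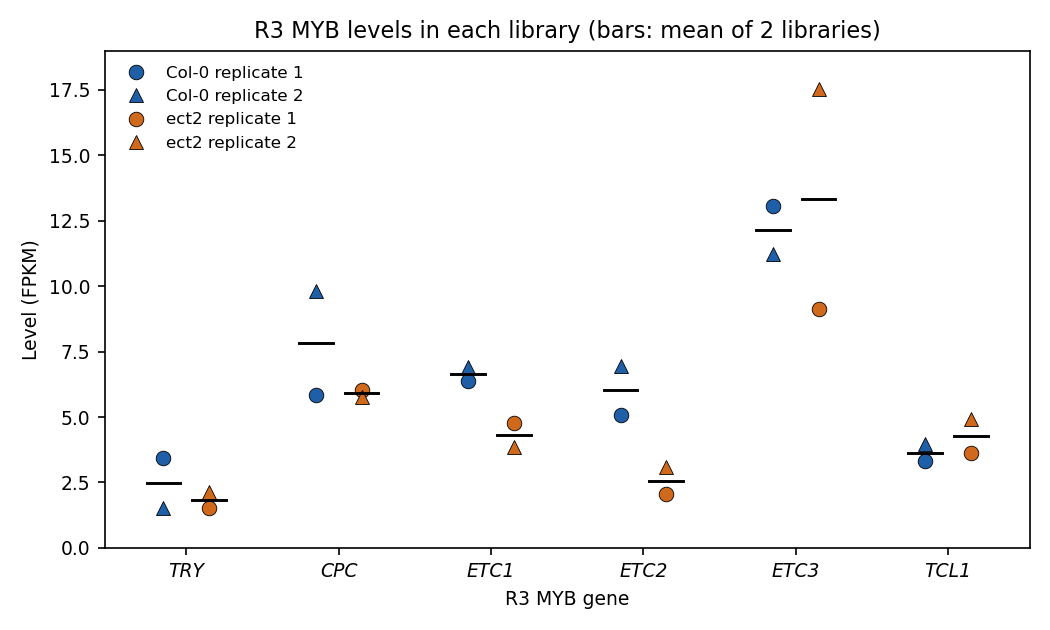
Levels of the 6 R3 MYB genes in FPKM (vertical axis) in each of the 4 libraries. Blue marks Col-0, orange *ect2*, circles replicate 1, triangles replicate 2, and bars the mean of 2 libraries. The groups of *ETC1* and *ETC2* do not overlap, and *ETC3* is the highest gene in each library.

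**Figure D2:**
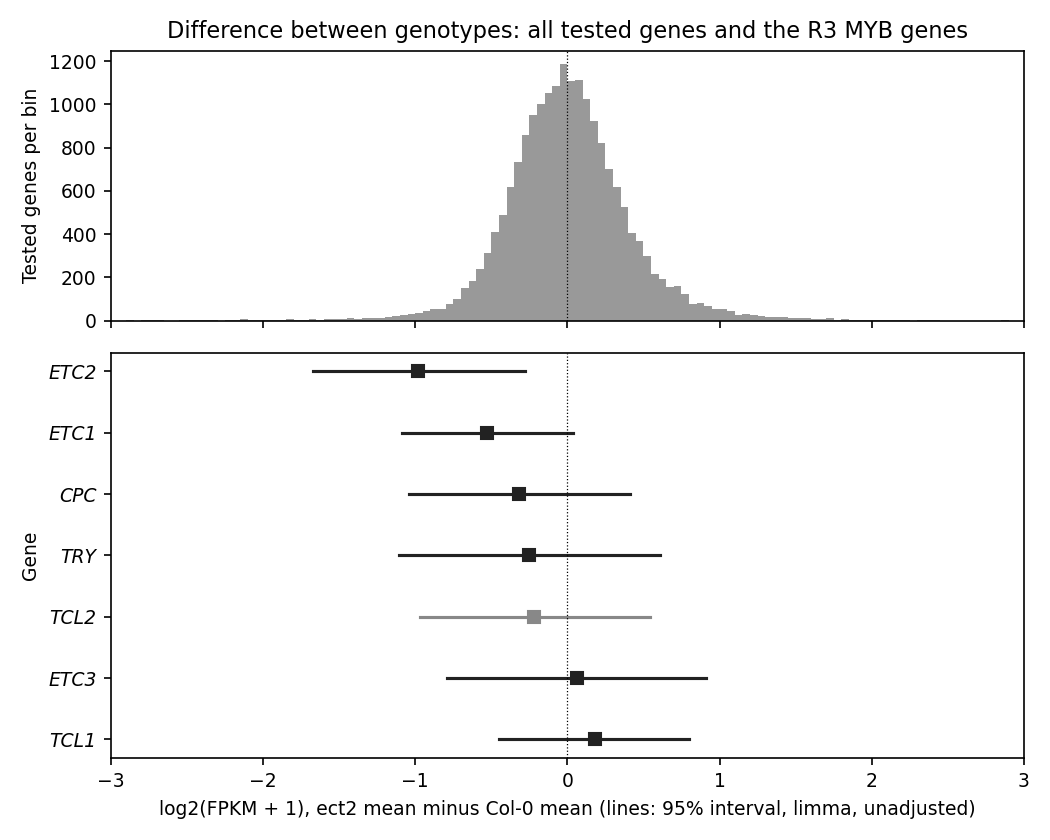
Differences between genotypes on the log2(FPKM + 1) scale (horizontal axis). The upper panel counts all 19308 tested genes in bins, apart from 23 that lie beyond the axis, and the lower panel gives each R3 MYB gene with its unadjusted 95% interval from limma, *TCL2* in grey. The interval of *ETC2* alone lies below 0, and none of the 7 genes passed after adjustment over all genes.

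The sizes can be read against other genes of like level. Over the 8484 tested genes whose mean lay between 2.14 and 12.7 FPKM, the range of the 6 members, the median absolute difference between genotypes was 0.22 (log2) and the 90th percentile 0.61. Replicates of Col-0 differed by a median of 0.35 and those of *ect2* by 0.23, with 90th percentiles of 0.97 and 0.63. The difference in *ETC2* was beyond the 90th percentile between genotypes and that in *ETC1* below it. In size, the *ETC2* difference of -0.98 was close to the 90th percentile between the Col-0 replicates. For *TRY*, the Col-0 replicates differed by -0.82 (replicate 2 minus replicate 1), and for *ETC3* the *ect2* replicates differed by 0.87, in both cases more than the genotypes did. The measures are unlike, since replicate differences compare single libraries and genotype differences compare means of 2 libraries, which spread less. A single comparison of 2 against 2 libraries cannot give an exact two-sided permutation p below 0.333.

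**Figure D3:**
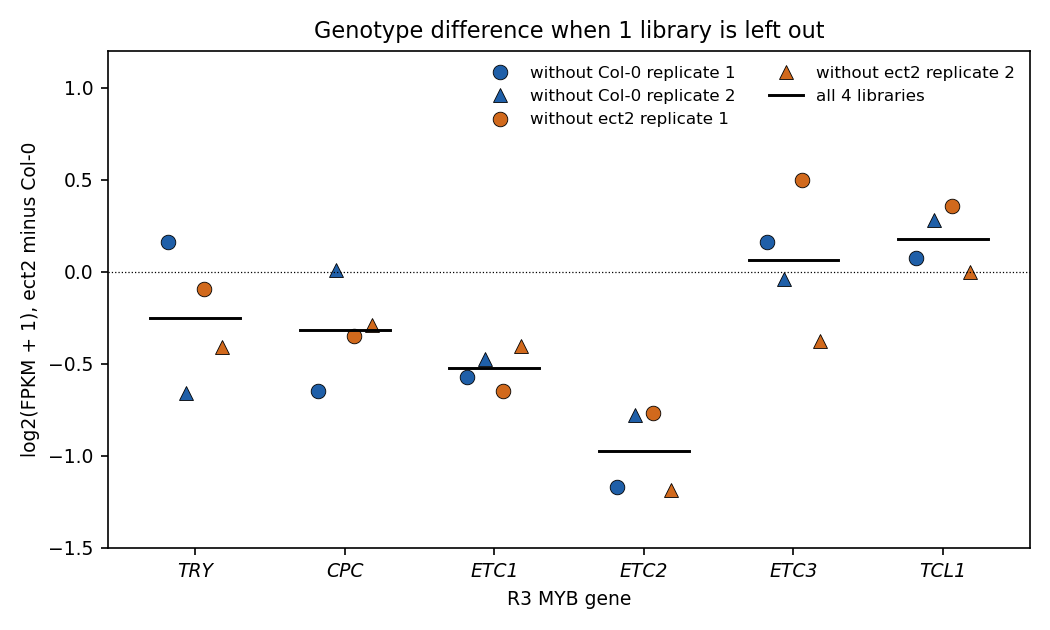
Genotype difference of each gene on the log2(FPKM + 1) scale (vertical axis), with all 4 libraries (bars) and with 1 library left out (points; colour and shape name the library removed). *ETC1* and *ETC2* stay below 0, as they must where groups do not overlap, while *TRY*, *CPC*, *ETC3* and *TCL1* cross it.

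In both genotypes *ETC3* had the highest mean level of the 6. It was followed in Col-0 by *CPC* (7.83 ± 2.80 FPKM), *ETC1*, *ETC2*, *TCL1* (3.63 ± 0.464 FPKM) and *TRY* (2.46 ± 1.36 FPKM; SD, n = 2 each). *CPC* and *ETC1* overlapped in Col-0, as did *ETC1* and *ETC2*, and *TCL1* and *TRY*. *ETC3* and *CPC* did not overlap, nor did *ETC2* and *TCL1*. In *ect2* the order was *ETC3* (13.3 ± 5.96 FPKM), *CPC* (5.90 ± 0.204 FPKM), *ETC1*, *TCL1* (4.26 ± 0.911 FPKM), *ETC2* and *TRY* (1.82 ± 0.435 FPKM; SD, n = 2 each), so *ETC2* and *TCL1* changed places. Among the neighbours in that order, *ETC1* and *TCL1* overlapped, as did *ETC2* and *TRY*.

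Ratios between members inside a library do not depend on a common scaling factor per library. The *ETC2* to *TCL1* ratio was 1.53 and 1.76 in wild-type libraries, against 0.57 and 0.629 in mutant ones, so *ETC2* was the more abundant of these chromosome 2 neighbours in the wild type and the less abundant in the mutant. The *ETC2* to *CPC* ratio was 0.867 and 0.71 in wild-type libraries, against 0.341 and 0.536 in mutant ones. The *ETC2* to *ETC3* ratio was 0.388 and 0.62 in wild-type libraries, against 0.226 and 0.176 in mutant ones. All 3 of these ratios were lower in both mutant libraries. The ratio to *TRY* was 1.48 and 4.63 against 1.37 and 1.45, with a narrow gap, and the ratio to *ETC1* overlapped between genotypes. *ETC2* made up 13.7% and 17.3% of the summed level of the 6 genes in Col-0 and 7.60% and 8.27% in *ect2*. The sum itself was 37.1 and 40.4 FPKM in the wild type and 27.1 and 37.3 FPKM in the mutant, with *ect2* replicate 2 inside the wild-type range. All of these values rest on the same *ETC2* measurements as the difference above.

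**Figure D4:**
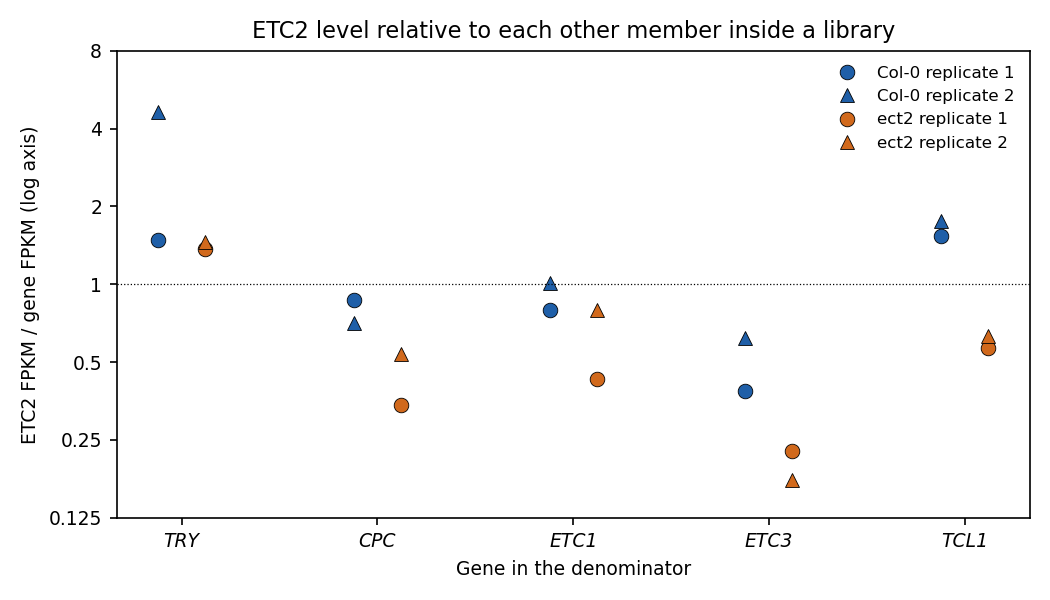
Ratio of the *ETC2* level to that of each other member inside a library (vertical log axis), by the gene in the denominator. Blue marks Col-0 and orange *ect2*, with circles for replicate 1 and triangles for replicate 2. Against *TCL1* the Col-0 libraries lie at 1.53 and 1.76 and the mutant libraries at 0.57 and 0.629.

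*TCL2*, a further repressor of stem and leaf trichomes, had 55.9 and 37.4 FPKM in the wild type, against 46.3 and 33.2 FPKM in the mutant. Those levels were above each of the 6 members in every library, and they overlapped between genotypes (log2 difference -0.22 ± 0.30, limma, adjusted p = 0.897). A level per length depends on the transcript length used, and the one the authors used for *TCL2* is not stated in the sources used here. The gene beside it on the other side of *ETC2*, *KIS*, measured 57.9 and 70.8 FPKM in wild-type libraries and 53.3 and 50.6 FPKM in mutant libraries. The groups of *KIS* did not overlap, with both mutant libraries below the wild type, as in 20.2% of all tested genes. It did not pass over all genes (limma, adjusted p = 0.844).

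The 3′ UTRs were searched for the motif known for ECT2 binding, which in DNA letters reads TGTAC or, with another last base, TGTAT, and likewise TATAC or, with another last base, TATAT, on the transcript strand and with overlapping matches counted. The motif occurred in 4 of the 7 genes: 6 times in *CPC*, 5 times in *TRY*, 5 times in *ETC1* and 4 times in *ETC3*. It did not occur in *ETC2*, *TCL1* or *TCL2*, the neighbours on chromosome 2, whose annotated 3′ UTRs measure 90, 198 and 123 bases. Of all annotated 3′ UTRs, 81.9% hold the motif. Windows of the same length at the start of other 3′ UTRs hold it in 47.5% of genes for the length of *ETC2*, in 75.2% for *TCL1* and in 59.2% for *TCL2*. For *TRY*, *CPC*, *ETC1* and *ETC3* the shares are 84.1%, 85.0%, 82.9% and 83.7%. A match is only a run of letters and does not show that the protein binds there. The match nearest to the stop codon is shown for each gene that has one, with 10 bases on either side and the motif in capitals.
TRY, chr5:21584002-21584026, plus strand: ttataatagaTGTATagtagtggtt
CPC, chr2:19049234-19049258, minus strand: aaaaaggaaaTGTACctgtccttga
ETC1, chr1:147742-147766, plus strand: ggccaactctTATATcatttttata
ETC3, chr4:460969-460993, plus strand: aagtgatcaaTATATctctatagtt

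**Figure D5:**
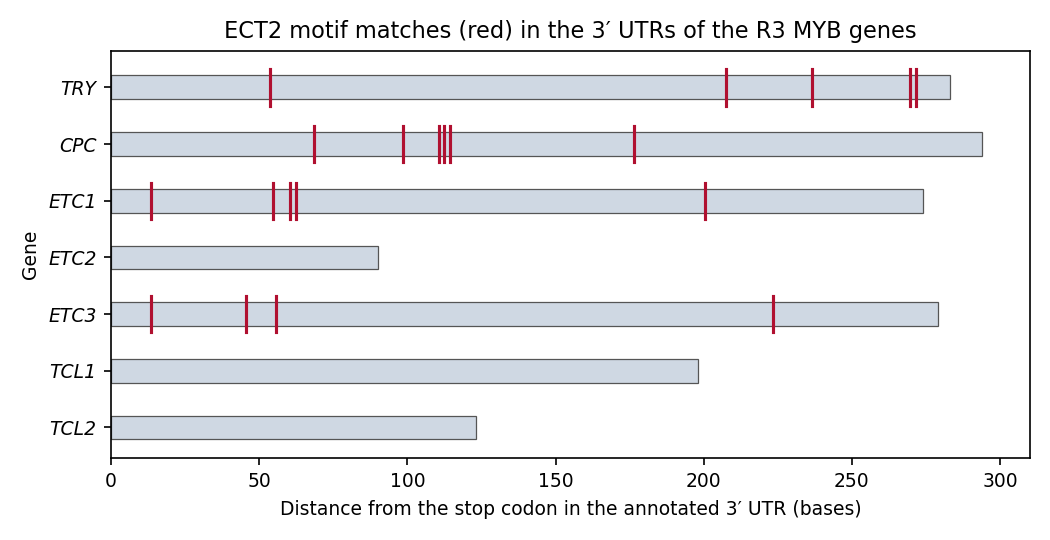
Matches of the ECT2 motif (red lines) along the annotated 3′ UTR of each R3 MYB gene (grey bars), by distance from the stop codon in bases. *ETC2*, *TCL1* and *TCL2* have no match, and their 3′ UTRs are the shortest of the 7.

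The activators that the R3 MYB proteins oppose were described from a list of 9 genes, of which 8 passed the filter. None passed the test over all genes. Their median log2 difference was -0.18, against -0.0096 over all tested genes. *GL1* had 2.14 and 2.17 FPKM in the wild type, against 1.14 and 1.79 FPKM in the mutant, with no overlap (adjusted p = 0.843, limma). The bHLH gene *MYC1* likewise did not overlap, at 4.90 and 4.58 against 4.15 and 3.89 FPKM. In the other direction *TTG1* measured 22.1 and 23.8 FPKM in wild-type libraries and 26.7 and 24.4 FPKM in mutant libraries. So 2 of 8 activators had both mutant libraries below the wild type and 1 had them above, where the shares over all tested genes were 20.2% and 17.5%. *GL2*, the target that R3 MYB proteins keep off in neighbouring cells, overlapped between genotypes, with 2.68 and 3.87 FPKM in the wild type against 4.91 and 3.25 FPKM in the mutant (log2 difference 0.24 ± 0.29, limma, adjusted p = 0.878). *GL3* was below 1 FPKM in 3 of 4 libraries and was not tested.

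Of 13 upstream regulators, 10 passed the filter and none passed the test (median log2 difference -0.056). *SPL9*, whose protein activates *TCL1* and *TRY* directly, had 3.61 and 2.59 FPKM in the wild type, against 1.68 and 2.01 FPKM in the mutant, a log2 difference of -0.52 ± 0.25 (limma, adjusted p = 0.842). The groups did not overlap, while *TCL1* and *TRY* themselves overlapped between genotypes. *SPL15*, a close relative of *SPL9*, measured 1.21 and 1.29 FPKM in wild-type libraries and 0.664 and 0.582 FPKM in mutant libraries. It passed the filter only through its Col-0 values. *ZFP5*, a zinc finger gene of trichome and root hair development, was higher in both mutant libraries, at 2.98 and 2.34 FPKM against 2.29 and 1.94 FPKM (adjusted p = 0.864, limma). Thus 2 of the 10, *SPL15* included, had both mutant libraries below the wild type and 1 had them above. The shares over all tested genes were 20.2% and 17.5%, so these counts are near the background.

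Genes of the tissues in which the R3 MYB genes act were set beside these values. Markers of the shoot meristem and leaf primordia, where leaf trichomes arise, summed to 148 and 116 FPKM in the wild type and to 90.1 and 101 FPKM in the mutant over 9 genes, none of them at 0. The leaf development gene *AS1* had 65.6 and 28.2 FPKM in wild-type libraries, against 23.6 and 30.2 FPKM in mutant ones, so only Col-0 replicate 1 was high. With *AS1* left out the sums were 82.4 and 88.1 FPKM in the wild type, against 66.5 and 70.7 FPKM in the mutant. Of 7 tested, 3 had both mutant libraries below the wild type and none had them above, where the shares over all tested genes were 20.2% and 17.5%. They included the meristem gene *BP* at 4.95 and 4.17 against 2.55 and 3.28 FPKM and the leaf polarity gene *YAB3* at 27.1 and 33.2 against 24.2 and 23.1 FPKM. The other 4 overlapped, and the meristem gene *STM*, named after its values were seen, measured 5.44 and 5.35 FPKM in wild-type libraries and 5.26 and 5.72 FPKM in mutant libraries. None of the 7 passed over all genes. The sums were lower in both mutant libraries. With *AS1* left out, their largest parts were *YAB3* and its relative *FIL*, which overlapped between genotypes. *ETC2*, *ETC1*, *GL1*, *MYC1*, *SPL9* and *SPL15* were likewise lower in both mutant libraries. The other members were not, nor were the other tested activators, *TTG1* and *GL2* among them, and the other tested upstream regulators. The markers differed among themselves, and their part in the levels of the members, activators and upstream regulators was not tested. In whole seedlings, fewer cells of a type and less RNA per cell cannot be told apart.

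Root hair genes, which lie downstream of *CPC* and its relatives in the root epidermis, summed to 64.9 and 48.7 FPKM in the wild type and to 104 and 57.8 FPKM in the mutant over 11 genes. None of 10 tested passed, and the median log2 difference was 0.21. Of these, 1 had both mutant libraries above the wild type and none had them below, where the shares over all tested genes were 17.5% and 20.2%. It was the expansin gene *EXPA7*, at 6.21 and 7.18 against 14.1 and 8.60 FPKM (log2 difference 0.65 ± 0.29, limma, adjusted p = 0.842). For *LRX1*, *PRP3* and *EXPA18*, *ect2* replicate 1 was the highest library, as it was for the sum of the 11 genes. *PRP3* was the largest part of that sum, with 42.9 FPKM in *ect2* replicate 1. The other tested root hair genes had log2 differences between -0.14 for *RHD2* and 0.33 for *PRP1*. Of the 10 tested, 2 had a negative difference. Root tissue markers summed to 158 and 210 FPKM in Col-0 and to 193 FPKM in each *ect2* library over 11 genes. The sums overlapped, with *CASP1* as their largest part, while single markers differed in direction. Of 9 tested, 3 had both mutant libraries below the wild type and 1 had them above, against the same shares of 20.2% and 17.5%. None passed over all genes. The gene above was the tonoplast aquaporin gene *TIP2;3*, which had 25.9 and 34.0 FPKM in the wild type, against 52.7 and 58.0 FPKM in the mutant (log2 difference 0.88 ± 0.24, limma, adjusted p = 0.842). The nitrate transporter gene *NRT2.1* was among those below, at 1.89 and 1.05 against 0.668 and 0.373 FPKM. It passed the filter only through its Col-0 values, so its direction was partly set by the filter.

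Members did not share 1 profile over the 4 libraries. Likeness was measured as the Euclidean distance between log2(FPKM + 1) values centred per gene, and 4 points make many genes look alike. The member nearest to *ETC2* was *ETC1*, at a distance of 0.68, and 886 tested genes (4.59%) were as near or nearer. The nearest genes with a symbol were *CDC20.1*, an activator of the mitotic ubiquitin ligase, at 0.192, *PME5*, a pectin methylesterase gene, at 0.2, and *IQD20* at 0.23. *CDC20.1* had 11.3 and 16.5 FPKM in the wild type, against 6.26 and 7.21 FPKM in the mutant. For *ETC1* the nearest were *ROPGEF6*, *PGM* and *ATPQ*, at 0.062 to 0.072. For *TRY* they were *UNE11*, *Hsp89.1* and *THI1*, for *CPC* the plastid genes *YCF2.1* and *PSBJ* and the telomere gene *AtPOT1a*, for *ETC3* *BAT1*, *BCA3* and *AAC2*, and for *TCL1* *CRK42*, *OPR1* and *CYP705A9*. *ETC3* and *TCL1* were each other's nearest member, at 0.48, as were *CPC* and *ETC1*, at 0.47. Of the tested genes, 4.95% were as near or nearer to *ETC3* and 30.8% to *TCL1*. For *CPC* and *ETC1* the shares were 15.4% and 17.9%, so these pairings do not set the family apart.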

How the data were processed

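Each library came as a table deposited by the authors, read here as FPKM because the identifier column is named as in Cufflinks output and the column sums differ and are too large for TPM. The submitters' processing notes name cutadapt, TopHat and the TAIR10 build. For the quantifier, its gene lengths and any scaling of the libraries, nothing is given in the sources used here. Per the labels' protocols, RNA was selected on oligo(dT) beads.

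The 19308 genes that reached 1 FPKM in 2 or more of the 4 libraries entered a limma fit (version 3.58.1, R 4.3.3) of log2(FPKM + 1), with intensity trend and robust estimation. Adjustment was by Benjamini-Hochberg over all of them, at a threshold of 0.05. The procedure was run on simulated data. The changes put in were larger than that of any member, and in genes at higher levels. That run therefore does not show how differences like those of the members would fare. Gene models and sequences come from RefSeq TAIR10.1, matched by locus identifier (32809 of 33544). For each R3 MYB gene the transcript with an 88-base second coding exon and the longest coding sequence was used. The members and gene lists were chosen with earlier results of these data known. The genes named are the members, *TCL2*, set partners and targets, the 4 genes with the smallest p of each list and the 3 nearest profiles per member; some are described. Alternatives were a replicate block, each library left out, other pseudocounts, minimums and scalings, and limma without trend.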

Additional observations from a re-analysis of the deposited data

How the results depend on the processing

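The count of genes called over all genes was 5, and 4 to 6 under the other pseudocounts, minimums, scalings and limma without trend. Leaving out a library moved it between 0 and 520: 11 with Col-0 replicate 1 left out, 520 with Col-0 replicate 2 left out, and 0 by limma with either *ect2* replicate 1 or *ect2* replicate 2 left out (284 and 431 genes at an unadjusted p below 0.05). No R3 MYB gene was among the called genes in any of these fits. The differences of *ETC1* and *ETC2* kept their sign in all of them. With a library left out this was fixed in advance, because their groups did not overlap. Leaving out a library turned the sign of others, with ranges of -0.66 to 0.16 for *TRY*, -0.65 to 0.011 for *CPC*, -0.38 to 0.50 for *ETC3*, -0.00079 to 0.35 for *TCL1*, -0.50 to 0.067 for *TCL2*, -0.61 to 0.026 for *EGL3*, -0.049 to 0.62 for *EXPA18*, -0.03 to 0.071 for *STM*, -0.54 to 0.11 for *CASP1* and -1.78 to 0.55 for *WRKY46*. The cause was not tested. Of the settings that keep all libraries, 1 turned a sign among the 35 genes recomputed, the 7 of the family and 28 others: with library medians made equal, *STM* was at -0.011. The genes nearest to a member by profile, other than *CDC20.1*, were not recomputed, nor were *TPP*, *TROL*, *GT72B1*, AT2G46420, AT1G02660, *RHD2* and *PRP1*. *SPL15* and *NRT2.1* fell below the filter without either Col-0 library. *AS1* was at -0.67, and at -0.078 without Col-0 replicate 1. *ECT2* did not pass with all libraries (limma, adjusted p = 0.153) and passed without Col-0 replicate 1 or Col-0 replicate 2 (0.0193 and 0.00329). The deviations of same-numbered libraries had a correlation of 0.0138 over genes. With 2 libraries per genotype this value cannot settle whether the numbers pair the libraries. With the replicate block 6 genes were called, and *ETC2* was at -0.98 (limma, adjusted p = 0.902). Without read totals, the counting error of values as low as those of *TRY* cannot be given.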

Other observations

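Genes next to the R3 MYB genes were looked at after their values were known. *SPCH*, the stomatal lineage gene beside *TRY*, measured 3.68 and 1.75 FPKM in wild-type libraries and 2.08 and 1.31 FPKM in mutant libraries. *HTR12*, the centromeric histone gene beside *ETC1*, had 6.22 and 9.01 FPKM in the wild type, against 5.69 and 5.52 FPKM in the mutant, with no overlap between the groups. *WRKY46*, the neighbour of *CPC*, measured 1.6 and 12.1 FPKM in wild-type libraries and 1.53 and 4.74 FPKM in mutant libraries, and replicate 2 was the higher library in both genotypes. Higher in both mutant libraries was *TPP*, the neighbour of *TCL1*, at 51.1 and 72.2 FPKM in the wild type against 108 and 75.7 FPKM. The groups of *TROL* and *GT72B1*, beside *ETC3*, and of AT2G46420, beside *CPC*, overlapped. Over all tested genes, 20.2% had both mutant libraries below the wild type and 17.5% had them above. No tested neighbour passed over all genes (limma, adjusted p of 0.844 for *SPCH* and *HTR12*, 0.904 for *WRKY46* and 0.842 for *TPP*).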
